A study of Homo sapiens with 16 samples.

Results

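The genes described here encode chemokines and inflammatory cytokines: CXCL8, CXCL1, CXCL2, CXCL3, CCL2, CCL20, IL1A, IL6, LIF and LTB. These 10 genes were chosen by family membership, by name, with earlier results of these data known, so their values are a description and no independent support. Values were read for 8 of the 10, among 23396 genes in any of the authors' deposited tables. CXCL1 and CXCL2 were not analysed here. All 8 were among the 19344 genes held by all 4 tables.

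The samples were 16 poly(A) RNA libraries of U2OS, a human bone tumour (osteosarcoma) line with functional p53. Cells were transfected with siControl or with siRFX7, which targets the mRNA of the transcription factor RFX7, and received Nutlin-3a at 10 µM or its solvent DMSO for 24 h. Nutlin-3a keeps the ubiquitin ligase MDM2 off p53, so that p53 accumulates. The 4 groups of 4 libraries were siControl with DMSO, siControl with Nutlin-3a, siRFX7 with DMSO and siRFX7 with Nutlin-3a. All groups were thus transfected cells of a single tumour line, and a knockdown leaves part of the target mRNA. The labels do not say whether the libraries of a group came from separate cultures, so the p-values measure the spread between these libraries, which may be technical. The authors' deposited tables each compared 2 groups and gave no value of a single library, so errors are the authors' standard errors (SE).

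Chemokines are small proteins that draw leukocytes along a gradient by binding receptors with 7 membrane-spanning segments. CXCL1, CXCL2, CXCL3 and CXCL8 attract mainly neutrophils, CCL2 attracts monocytes and CCL20 attracts cells bearing CCR6. IL-1α is released by damaged cells as an alarm signal, IL-6 and LIF signal through gp130 to JAK kinases and STAT3, and lymphotoxin β forms a membrane-bound trimer with lymphotoxin α. In many cell types these genes are switched on by NF-κB and AP-1 factors, and several of their mRNAs carry AU-rich elements that speed decay. Tumour cells and senescent cells can secrete several of these proteins without an infection.

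The targeted gene was lower with its siRNA, under a table direction that was itself fixed with this sign, as given below. Per the authors' deposited tables, RFX7 had a log2 fold change of -2.42 ± 0.07 (SE) under DMSO, which left 18.6% of the control level, and -2.37 ± 0.07 under Nutlin-3a, which left 19.4%. CDKN1A, the p53 target that encodes p21, had log2 fold changes with Nutlin-3a of 3.24 ± 0.04 (siControl) and 2.98 ± 0.04 (siRFX7), per the authors' deposited tables. These responses differed by -0.26 ± 0.05 (adjusted p 0.000305, two-sided normal test). CDKN1A was nevertheless higher with siRFX7, by 0.60 ± 0.04 under DMSO and 0.33 ± 0.04 under Nutlin-3a, per the authors' deposited tables. For MDM2 the responses differed by -0.13 ± 0.06, which did not pass the same test (adjusted p 0.626). The signs of RFX7, CDKN1A and MDM2 were used to fix the direction of the tables. The osteoblast lineage and mesenchymal markers VIM, COL1A1 and SPARC had base means of 84576, 39039 and 31574 per the authors' deposited table for siControl, whereas COL1A2 had 13.2. Of 10 leukocyte markers, between 3 and 6 had a value per the authors' deposited tables, with a summed base mean of 124 to 196, most of it from ITGAM. ITGAM rose with Nutlin-3a, at 1.03 ± 0.14 (SE) with siControl and 0.92 ± 0.16 with siRFX7, per the authors' deposited tables, and its part in the values below was not tested. The epithelial markers EPCAM and CDH1 were higher with siRFX7 under both treatments, CDH1 by 0.85 ± 0.13 (SE) under DMSO and 1.104 ± 0.12 under Nutlin-3a per the authors' deposited tables. Their part was not tested either. In such bulk RNA, fewer cells that express a gene and less RNA per cell cannot be told apart.

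The promoters of the genes that fell furthest are shown first, with that of IL1A, which rose. Sequences are those of RefSeq on GRCh38.p14 for the 250 bases before the RefSeq start, which can differ from the GENCODE gene end, written 5′ to 3′ on the gene's strand. Capitals mark matches to a κB-like core spelled GGNNTTTCC, to the AP-1 site TGANTCA, to the TATA element TATAAA or to GTTGCC, a short motif of the kind RFX factors bind, each searched on both strands. CXCL8 (chr4:73740319-73740568, plus strand), CCL20 (chr2:227813592-227813841, plus strand), LTB (chr6:31582426-31582675, minus strand) and IL1A (chr2:112784494-112784743, minus strand) read as follows.
CXCL8: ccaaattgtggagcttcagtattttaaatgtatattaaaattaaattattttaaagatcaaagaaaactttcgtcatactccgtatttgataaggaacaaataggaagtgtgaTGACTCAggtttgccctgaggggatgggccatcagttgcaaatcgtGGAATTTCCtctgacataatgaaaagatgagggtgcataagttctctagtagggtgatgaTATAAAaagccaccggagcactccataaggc
CCL20: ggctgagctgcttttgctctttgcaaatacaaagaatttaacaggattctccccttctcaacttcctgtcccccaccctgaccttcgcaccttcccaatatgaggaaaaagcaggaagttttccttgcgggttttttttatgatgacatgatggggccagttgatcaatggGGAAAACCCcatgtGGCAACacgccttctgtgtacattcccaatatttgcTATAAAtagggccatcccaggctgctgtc
LTB: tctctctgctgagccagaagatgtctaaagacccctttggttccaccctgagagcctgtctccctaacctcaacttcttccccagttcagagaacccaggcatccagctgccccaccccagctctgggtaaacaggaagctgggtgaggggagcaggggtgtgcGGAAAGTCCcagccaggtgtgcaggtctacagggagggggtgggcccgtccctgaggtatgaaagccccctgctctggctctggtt
IL1A: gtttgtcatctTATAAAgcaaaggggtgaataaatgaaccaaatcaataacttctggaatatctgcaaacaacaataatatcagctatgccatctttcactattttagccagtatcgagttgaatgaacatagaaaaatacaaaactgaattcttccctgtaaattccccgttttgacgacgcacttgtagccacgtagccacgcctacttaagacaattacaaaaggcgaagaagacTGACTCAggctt

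In CXCL8 the capitals are, in order, an AP-1 match at bases -137 to -131, a κB-like match at -91 to -83 and a TATA match at -31 to -26 from the start. In CCL20 they are a κB-like match on the opposite strand at -79 to -71, a GTTGCC match on the opposite strand at -65 to -60 and a TATA match at -29 to -24. LTB has a κB-like match alone, on the opposite strand at -86 to -78. IL1A has a TATAAA match far upstream at -239 to -234 and an AP-1 match at -12 to -6, with a further AP-1 match after the start at 39 to 45.

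RefSeq promoters were matched for 8 of the 10 genes, all but CCL2 and LIF. In the window from 250 bases before to 50 bases after the start, the κB-like core was in 7 of these 8 promoters, against 6.26% of 27305 promoters. IL1A was the promoter without it. In IL6 the match lay at -72 to -64. CXCL1 and CXCL3 had a pair of matches, at -78 to -70 and at -53 to -45, and CXCL2 had a pair at -77 to -69 and -53 to -45. The promoter sequences of CXCL1, CXCL2 and CXCL3 are alike, so their matches are not separate finds. No expression value was read for CXCL1 and CXCL2. For IL1A and LTB 2 starts were listed, and only the first was searched. The AP-1 site was in 2 of 8 promoters (CXCL8 and IL1A) against 7.76% of all, and TATAAA in 3 of 8 against 12.0%. GTTGCC was in 1 of 8 (CCL20) against 12.2% of all promoters. These are matches of letters and say nothing of whether a factor was bound.

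**Figure D1:**
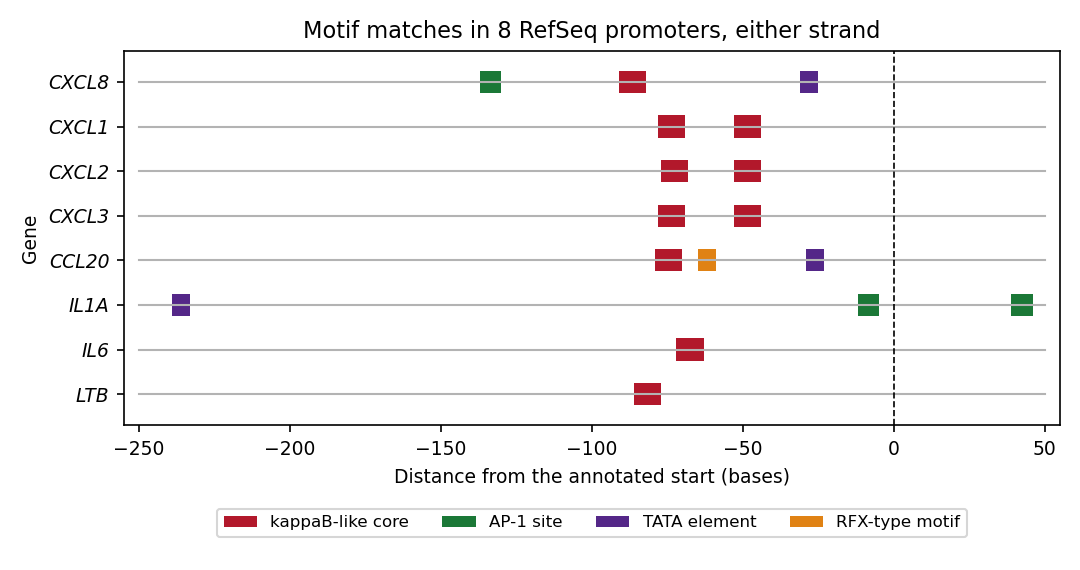
Motif matches in the 8 RefSeq promoters, plotted by distance in bases from the annotated start (dashed line). Rows are genes and coloured bars are matches on either strand; the κB-like core is drawn in 7 of 8 rows and the bars of that core lie between -91 and -45.

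The 3′ UTRs were searched for AU-rich elements. In GENCODE 29, taking the transcript with the longest coding part, the AU-rich pentamer ATTTA was in 7 of the 8 measured genes, all but LTB, against 67.6% of 13554 coding genes. The AU-rich heptamer TATTTAT was in 6 of 8, all but CCL2 and LTB, against 31.4%. CXCL8 held 9 copies of the pentamer in 1252 bases, IL6 6 copies in 429 bases and CXCL3 7 copies in 673 bases. CCL2 held 1 copy in 376 bases, and LTB, with 154 bases, held none. The median density of the pentamer was 5.50 copies per kilobase in the 8 genes and 1.51 in those 13554 coding genes. A further heptamer, GTATCTA, was searched as one assigned to the RFX7 siRNA and is not among the AU-rich elements. Chosen after an earlier look at these tables, it was in 0 of 8 of these 3′ UTRs, against 6.58% of those coding genes. At that share a count of 0 of 8 says little. Whether the heptamer is frequent in genes lower with siRFX7 was not tested here.

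The 8 genes are described in 3 sets. CXCL8, LTB, CCL20 and CCL2 were lowest in siRFX7 cells given Nutlin-3a, and IL1A and LIF were higher with Nutlin-3a whichever siRNA was used. CXCL3 and IL6 were set apart because they had the lowest levels of the 8. IL6 was also lowest in siRFX7 cells given Nutlin-3a, though no comparison of it passed the test. CXCL3 was highest in that group. Group levels were rebuilt from the base mean, which is the mean normalised read count over both groups of a table, and the fold change, and were brought to the scale of the table for Nutlin-3a in siControl. They carry no error of their own, and the errors given are those of the fold changes. Per kilobase of exon in siControl with DMSO, LIF stood highest with 366 normalised counts, followed by CCL2 with 297, LTB with 163 and CXCL8 with 136. CCL20 followed with 88.0, IL1A with 24.8, IL6 with 17.3 and CXCL3 with 8.79. The ratio of the highest to the lowest group was 4.27 for IL1A, 2.85 for CXCL8, 2.82 for LTB and 2.32 for CCL20. It was 1.86 for CXCL3, 1.83 for IL6, 1.68 for LIF and 1.64 for CCL2. IL6 and CXCL3 had base means under 100 in all 4 authors' deposited tables, CCL20 in 2 of them and IL1A in 1. The pairs siControl with DMSO against siRFX7 with Nutlin-3a, and siControl with Nutlin-3a against siRFX7 with DMSO, were not tested by the authors, so an order between them is given as levels only.

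**Figure D2:**
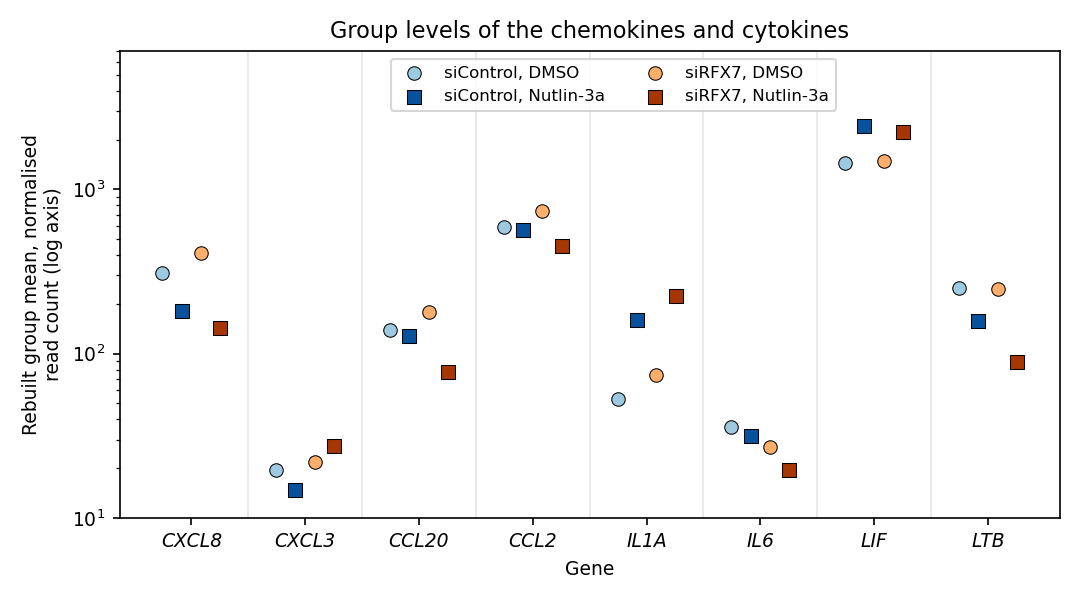
Rebuilt group means of the 8 measured genes as normalised read counts on a log axis, with 1 point per group. LIF and CCL2 are at 451 or more in every group, CXCL3 and IL6 at 35.9 or less, and IL1A has the widest spread, from 52.7 to 225.

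CXCL8 (ENSG00000169429, chromosome 4, 73740506 to 73743716, plus strand, GENCODE 29) encodes interleukin 8, a neutrophil attractant. Its level was 309 normalised counts in siControl with DMSO, 182 in siControl with Nutlin-3a, 410.3 in siRFX7 with DMSO and 144 in siRFX7 with Nutlin-3a. It was thus highest in siRFX7 cells without Nutlin-3a and lowest in siRFX7 cells with it, and each neighbouring pair in this order passed the authors' test. With Nutlin-3a it fell by 0.76 ± 0.11 (SE) on the log2 scale in siControl, to a level 1.69-fold lower, per the authors' deposited table (DESeq2 adjusted p 1.87e-11). In siRFX7 it fell by 1.51 ± 0.12, to a level 2.85-fold lower, per the authors' deposited table (DESeq2 adjusted p 2.01e-32). With siRFX7 it was higher under DMSO, by 0.41 ± 0.10 (DESeq2 adjusted p 0.000132), and lower under Nutlin-3a, at -0.34 ± 0.14 (DESeq2 adjusted p 0.0441), per the authors' deposited tables.

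CXCL3 (ENSG00000163734, chromosome 4, 74036589 to 74038807, minus strand) encodes another neutrophil attractant of the same gene cluster. Its level was low in all groups: 19.5 in siControl with DMSO, 14.7 in siControl with Nutlin-3a, 21.8 in siRFX7 with DMSO and 27.4 in siRFX7 with Nutlin-3a. Its coding sequence is close to those of CXCL1 and CXCL2, with which reads can be shared, so its value is uncertain. Nutlin-3a gave -0.40 ± 0.35 (SE) in siControl and 0.33 ± 0.35 in siRFX7 per the authors' deposited tables, and neither passed the test (DESeq2 adjusted p 0.414 and 0.511). Under Nutlin-3a it was higher with siRFX7 by 0.90 ± 0.36 per the authors' deposited table (DESeq2 adjusted p 0.0391). That direction was opposite to that of CXCL8 in the same table.

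CCL20 (ENSG00000115009, chromosome 2, 227805739 to 227817564, plus strand) encodes the ligand of CCR6. Its level was 140.3 in siControl with DMSO, 128 in siControl with Nutlin-3a, 179 in siRFX7 with DMSO and 77.2 in siRFX7 with Nutlin-3a. The siControl groups lay close together between the siRFX7 groups. In siControl the Nutlin-3a value of -0.13 ± 0.15 (SE) did not pass the test per the authors' deposited table (DESeq2 adjusted p 0.551; 95% interval -0.41 to 0.16). In siRFX7 it fell by 1.21 ± 0.18 per the authors' deposited table (DESeq2 adjusted p 5.79e-10). With siRFX7 it was higher under DMSO by 0.36 ± 0.14 (DESeq2 adjusted p 0.0298) and lower under Nutlin-3a at -0.72 ± 0.19 (DESeq2 adjusted p 0.00104) per the authors' deposited tables.

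CCL2 (ENSG00000108691, chromosome 17, 34255218 to 34257203, plus strand) encodes the monocyte attractant MCP-1. It had the same order of groups as CCL20 at a higher level: 590.2 in siControl with DMSO, 563 in siControl with Nutlin-3a, 738 in siRFX7 with DMSO and 451 in siRFX7 with Nutlin-3a. In siControl the response to Nutlin-3a was -0.07 ± 0.07 (SE) per the authors' deposited table and did not pass the test (DESeq2 adjusted p 0.517; 95% interval -0.20 to 0.07). In siRFX7 it fell by 0.71 ± 0.08 per the authors' deposited table (DESeq2 adjusted p 1.82e-19). The siRFX7 values were 0.32 ± 0.07 under DMSO (DESeq2 adjusted p 1.29e-05) and -0.32 ± 0.08 under Nutlin-3a (DESeq2 adjusted p 0.000287) per the authors' deposited tables.

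LTB (ENSG00000227507, chromosome 6, 31580525 to 31582522, minus strand) encodes lymphotoxin β, which signals through LTBR. Its level was 249.95 in siControl with DMSO, 158 in siControl with Nutlin-3a, 248 in siRFX7 with DMSO and 88.5 in siRFX7 with Nutlin-3a. Both DMSO groups stood together above both Nutlin-3a groups. With Nutlin-3a it fell by 0.66 ± 0.12 (SE) in siControl (DESeq2 adjusted p 2.43e-07) and fell by 1.49 ± 0.14 in siRFX7 (DESeq2 adjusted p 5.15e-24) per the authors' deposited tables. With siRFX7 the DMSO value of -0.01 ± 0.10 did not pass the test per the authors' deposited table (DESeq2 adjusted p 0.950). Under Nutlin-3a it was lower, at -0.84 ± 0.16 per the authors' deposited table (DESeq2 adjusted p 2.97e-06).

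IL1A (ENSG00000115008, chromosome 2, 112773915 to 112784590, minus strand) encodes IL-1α. Its level was 52.7 in siControl with DMSO, 159 in siControl with Nutlin-3a, 74.5 in siRFX7 with DMSO and 225 in siRFX7 with Nutlin-3a. Of the 8 genes it had the largest rise per the 4 tables. Nutlin-3a samples stood 3.02-fold higher in both siControl (log2 1.596 ± 0.17 SE, DESeq2 adjusted p 1.22e-20) and siRFX7 (log2 1.592 ± 0.16, DESeq2 adjusted p 2.19e-23) per the authors' deposited tables. With siRFX7 it was higher by 0.50 ± 0.20 under DMSO (DESeq2 adjusted p 0.0320) and by 0.50 ± 0.13 under Nutlin-3a (DESeq2 adjusted p 0.000763) per the authors' deposited tables.

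LIF (ENSG00000128342, chromosome 22, 30240447 to 30246851, minus strand) encodes a gp130 cytokine of the IL-6 family. Its level was 1452 in siControl with DMSO, 2443 in siControl with Nutlin-3a, 1483 in siRFX7 with DMSO and 2239 in siRFX7 with Nutlin-3a, so both Nutlin-3a groups stood above both DMSO groups. It rose with Nutlin-3a by 0.75 ± 0.06 (SE) in siControl (DESeq2 adjusted p 1.10e-40) and by 0.59 ± 0.05 in siRFX7 (DESeq2 adjusted p 5.17e-32) per the authors' deposited tables. With siRFX7 the DMSO value was 0.03 ± 0.05 (DESeq2 adjusted p 0.710) and the Nutlin-3a value -0.13 ± 0.05 (DESeq2 adjusted p 0.0462) per the authors' deposited tables.

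IL6 (ENSG00000136244, chromosome 7, 22725884 to 22732002, plus strand) encodes the founding member of that family. Its level was 35.9 in siControl with DMSO, 31.5 in siControl with Nutlin-3a, 27.1 in siRFX7 with DMSO and 19.6 in siRFX7 with Nutlin-3a. No comparison of it passed the test per the authors' deposited tables: the values were -0.17 ± 0.27 (SE) and -0.46 ± 0.37 for Nutlin-3a in siControl and siRFX7. They were -0.42 ± 0.30 and -0.69 ± 0.34 for siRFX7 under DMSO and under Nutlin-3a, with DESeq2 adjusted p between 0.106 and 0.695 over the 4 authors' deposited tables. Under Nutlin-3a the unadjusted p of the siRFX7 value was 0.0408 per the authors' deposited table (DESeq2).

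**Figure D3:**
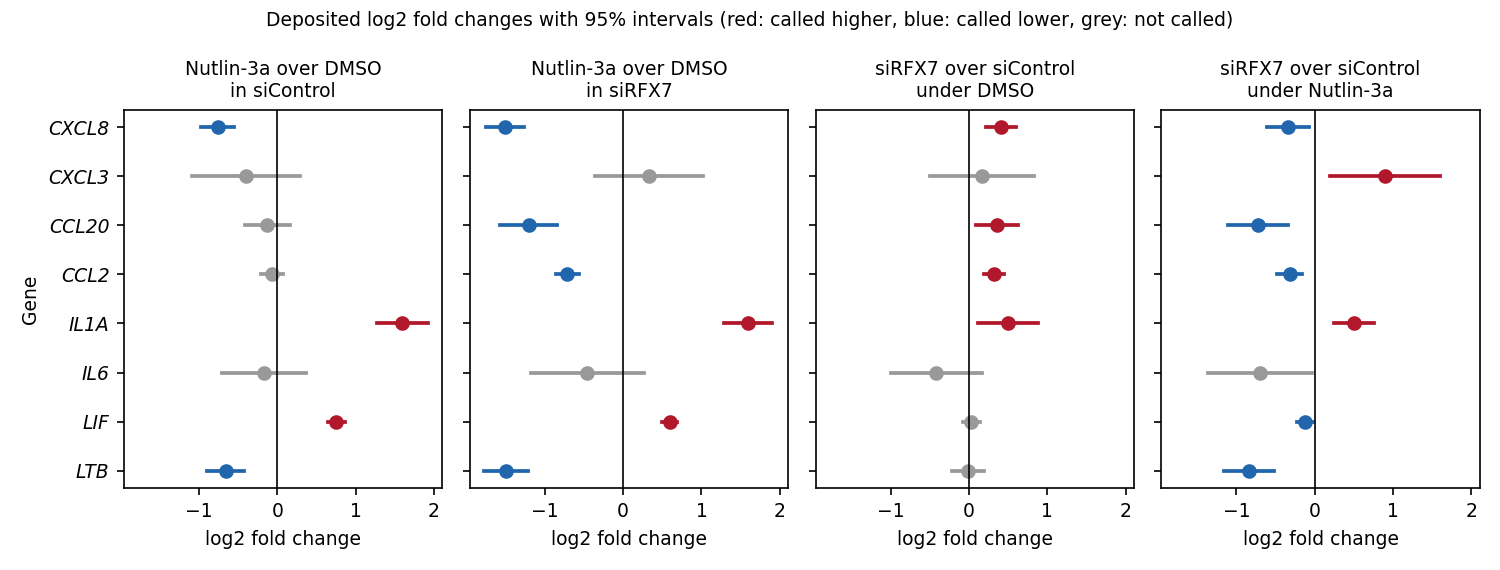
Log2 fold changes of the 8 genes with 95% intervals in the authors' 4 comparisons, 1 panel each; red marks genes called higher, blue called lower and grey not called. IL1A lies to the right of 0 in all 4 panels (higher), and CXCL8, CCL20 and CCL2 change side between the siRFX7 panels.

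Counted over the 8 genes at an adjusted p under 0.05, Nutlin-3a in siControl raised 2 and lowered 2 per the authors' deposited table, where 18.3% of all 23353 genes were called higher and 19.6% lower. In siRFX7 it raised 2 and lowered 4, against 18.7% and 20.3% of 21382 genes per the authors' deposited table. With siRFX7 under DMSO 4 genes were higher and 0 lower, also 0 at an unadjusted p under 0.05, against 19.9% and 17.5% of 19511 genes per the authors' deposited table (DESeq2). Under Nutlin-3a 2 were higher and 5 lower, against 17.2% and 15.4% of 20335 genes per the authors' deposited table. The median log2 fold changes of the 8 genes in these tables were -0.15, -0.59, 0.24 and -0.33 in the same order, beside 0.01, 0.01, -0.00 and -0.01 over all genes tested. The counts share groups: siControl with Nutlin-3a, for example, enters the Nutlin-3a comparison in siControl and the siRFX7 comparison under Nutlin-3a. At an adjusted p under 0.01, 2 genes were called under DMSO and 4 under Nutlin-3a for siRFX7, so 2 and 3 calls had an adjusted p between 0.01 and 0.05. Dividing each statistic by its robust SD over genes of like base mean, called genes included, left 1, 3, 0 and 0 of the 8 called in the 4 tables in the order above.

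The Nutlin-3a responses of siRFX7 and siControl were then compared directly, by subtracting the siControl log2 fold change from the siRFX7 one, in tables that share no library. CCL20, CXCL8, LTB and CCL2 each differed, and each had the lower response in siRFX7. CCL20 differed most in size, with -1.08 ± 0.24 (SE; 95% interval -1.54 to -0.62; adjusted p 0.00133 by a two-sided normal test over 21339 genes). For LTB the difference was -0.83 ± 0.19 (95% interval -1.20 to -0.47; adjusted p 0.00201), and for CXCL8 -0.75 ± 0.16 (95% interval -1.07 to -0.43; adjusted p 0.00140). CCL2, the most precisely measured of these, gave -0.64 ± 0.10 (95% interval -0.85 to -0.44; adjusted p 4.40e-07). A lower response thus meant a deeper fall for CXCL8 and LTB, and for CCL20 and CCL2 a fall where the siControl value had not passed the test. For LIF the difference was -0.16 ± 0.07 and did not pass the adjusted test (adjusted p 0.689; 95% interval -0.30 to -0.01). IL1A gave a difference near 0, with a 95% interval from -0.45 to 0.44, CXCL3 0.73 ± 0.50 (95% interval -0.24 to 1.71) and IL6 -0.29 ± 0.46 (95% interval -1.19 to 0.61). Of the 8 genes, 4 were called lower and 0 higher in this difference, also 0 at an unadjusted p under 0.05, against 0.764% and 0.173% of all genes tested. The median difference of the 8 genes was -0.47, and that of all genes -0.00. No test was made of whether the members' share differs from that background. Requiring a size of at least 1 left 1 of these 4 calls, that of CCL20. A Bonferroni adjustment also left 1, but that of CCL2.

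**Figure D4:**
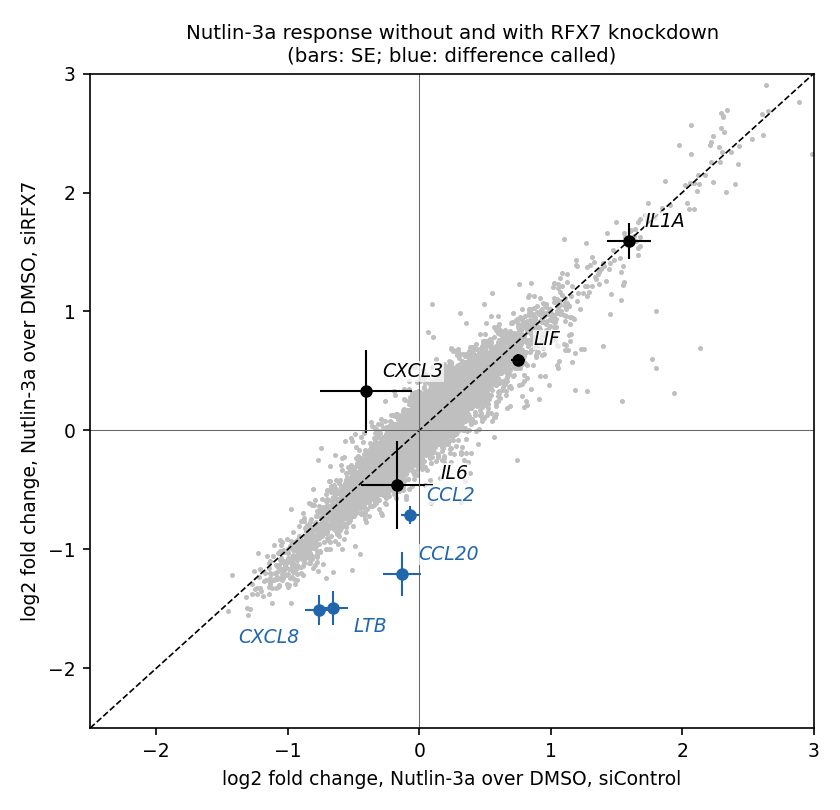
Log2 fold changes with Nutlin-3a in siControl (x axis) and siRFX7 (y axis) for genes whose base mean reached 100 in both tables (grey; points beyond the axes are not drawn) and the 8 genes with SE bars. CXCL8, LTB, CCL20 and CCL2 (blue, difference called) lie below the dashed line of equal response, and IL1A and LIF lie near it.

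The receptors of these ligands were described next. Of 11 receptor genes 8 had a value, and Nutlin-3a gave 3 higher and 0 lower among them in siControl and 5 and 0 in siRFX7, per the authors' deposited tables. Over all genes, 18.3% were higher and 19.6% lower in the first table and 18.7% and 20.3% in the second. IL6R, the IL-6 receptor, was higher with siRFX7 by 0.47 ± 0.06 (SE) under DMSO and by 0.71 ± 0.07 under Nutlin-3a per the authors' deposited tables. IL1RAP, which pairs with IL1R1, was lower, at -0.43 ± 0.06 and -0.61 ± 0.06 per the same authors' deposited tables. None of the 8 receptors differed between the Nutlin-3a responses, and 2 did at an unadjusted p under 0.05. Among brakes on the signal or the mRNA, 9 of 11 could be compared. Of these, 0 differed between the responses by the normal test, with 1 at an unadjusted p under 0.05. Both lists stand beside 0.764% lower and 0.173% higher among all 21339 genes, of which 1349 had an unadjusted p under 0.05. SOCS3, which inhibits gp130 signalling, was lower with siRFX7 at -0.36 ± 0.08 under DMSO and -0.58 ± 0.09 under Nutlin-3a per the authors' deposited tables. ZC3H12A, an RNase that degrades inflammatory mRNAs, was higher by 0.41 ± 0.07 and 0.21 ± 0.07 per the authors' deposited tables.

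The genes of NF-κB signalling were described from a list of 15 subunits and feedback genes, which was chosen with earlier results known. All 15 had a value. With Nutlin-3a, 7 were higher and 2 lower in siControl, and 5 higher and 9 lower in siRFX7, per the authors' deposited tables, beside 18.3% and 19.6%, and 18.7% and 20.3%, of all genes. With siRFX7, 4 were higher and 4 lower under DMSO, and 0 higher and 8 lower under Nutlin-3a, per the authors' deposited tables, beside 19.9% and 17.5%, and 17.2% and 15.4%, of all genes. In the difference of the responses 6 of 15 were lower and 0 higher (also 0 at an unadjusted p under 0.05), against 0.764% and 0.173% of all genes, with a median of -0.16 beside -0.00 over all genes. TRAF1, an adaptor induced by NF-κB, rose with Nutlin-3a by 1.13 ± 0.05 (SE) with siControl and by 0.68 ± 0.07 with siRFX7 per the authors' deposited tables, a difference of -0.45 ± 0.08. BIRC3, a ubiquitin ligase of the receptor complex, rose by 0.80 ± 0.06 and 0.47 ± 0.06 and was lower with siRFX7 at -0.87 ± 0.06 under DMSO and -1.20 ± 0.06 under Nutlin-3a per the authors' deposited tables. NFKB1, a subunit, gave a difference of -0.24 ± 0.06. NFKBIA, TNFAIP3 and TNIP1, each an inhibitor that NF-κB itself induces, are named after their values were seen. Their differences were -0.32 ± 0.07, -0.42 ± 0.08 and -0.23 ± 0.05. TNFAIP3 rose by 0.23 ± 0.05 with Nutlin-3a in siControl and fell by 0.19 ± 0.06 in siRFX7 per the authors' deposited tables. The NF-κB counts were not read against a random list, and a size of at least 1 left 0 of the 6 calls.

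Among 8 AP-1 genes, Nutlin-3a gave 5 higher and 0 lower in siControl, and 3 higher and 1 lower in siRFX7, per the authors' deposited tables, beside the same 18.3% and 19.6%, and 18.7% and 20.3%, of all genes. JUNB rose by 0.36 ± 0.07 (SE) in siControl and fell by 0.19 ± 0.06 in siRFX7 per the authors' deposited tables, a difference of -0.55 ± 0.09. It was the only AP-1 gene called in the difference. ATF3, a stress-induced factor, rose by 0.90 ± 0.06 and 0.66 ± 0.06 with Nutlin-3a in siControl and siRFX7 per the authors' deposited tables. Of 7 JAK, STAT and C/EBP genes, 5 were lower with siRFX7 under DMSO and 4 under Nutlin-3a per the authors' deposited tables, against 17.5% and 15.4% of all genes. JAK1, a kinase of the gp130 receptors, was lower, at -0.83 ± 0.04 and -0.78 ± 0.03 there, and STAT3 at -0.57 ± 0.04 and -0.69 ± 0.04, per the authors' deposited tables. None of these 7 differed between the responses, with 2 at an unadjusted p under 0.05. Of 11 IKK and adaptor genes 0 differed, with 3 at an unadjusted p under 0.05. Beside these counts, 0.764% of all 21339 genes were lower and 0.173% higher in the difference. An unadjusted p under 0.05 by the same normal test was held by 1349 genes.

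**Figure D5:**
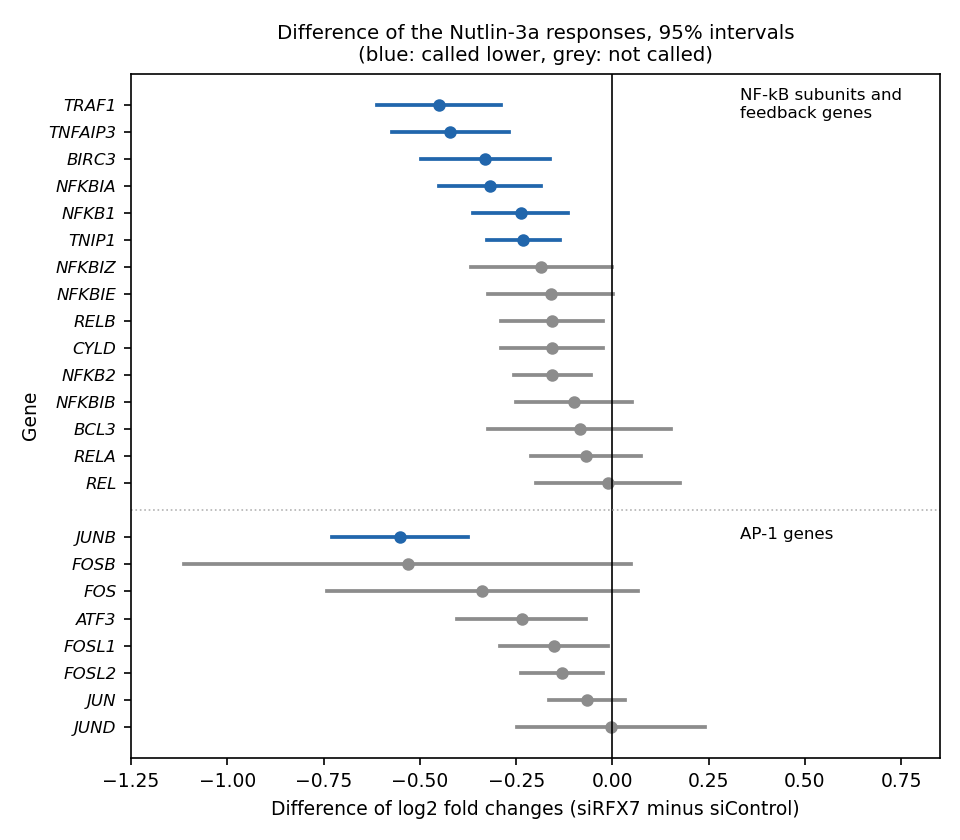
Difference of the Nutlin-3a responses, siRFX7 minus siControl, with 95% intervals for the 15 NF-κB genes and the 8 AP-1 genes. Blue marks genes called lower; 6 of the 15 and 1 of the 8 are blue and no gene is called higher.

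The remaining chemokine and cytokine genes were listed for comparison, and whether they differ from the members was not tested. Of 38 other chemokine genes 11 had a value in both Nutlin-3a tables, and 0 of them differed between the responses, also 0 at an unadjusted p under 0.05. Of 40 other cytokine genes 26 had a value, and 0 differed, with 2 at an unadjusted p under 0.05. In that difference 0.764% of all genes were lower and 0.173% higher, and 1349 of 21339 had an unadjusted p under 0.05 (normal test). The median base mean over both Nutlin-3a tables was 23.5 for these chemokines and 63.4 for these cytokines, beside 141 for the members. Given that share and these levels, no contrast with the members can be read from the counts of 0. IL11, a further gp130 cytokine, rose by 0.40 ± 0.06 (SE) with Nutlin-3a in siControl and by 0.35 ± 0.06 in siRFX7 per the authors' deposited tables. It was higher with siRFX7 by 0.56 ± 0.06 and 0.51 ± 0.06 under DMSO and Nutlin-3a per the authors' deposited tables. CCL3 and CCL4, among the 11, have near-identical copies, so reads may be split between them.

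Across the 4 log2 fold changes, the genes closest to CXCL8 by Euclidean distance among 11961 genes were HMX2 (distance 0.347), CKS2 (0.378), PLK1 (0.411), CDCA8 (0.424) and CDCA5 (0.475). These also had negative values for Nutlin-3a with either siRNA: CKS2, a cell division gene, had -0.66 in siControl and -1.19 in siRFX7, and the mitotic kinase PLK1 -0.94 and -1.29, per the authors' deposited tables. The genes closest to the median of the 8 were PDGFRA (distance 0.138), CHRM4 (0.161), CCL2 (0.169), AFF2 (0.173) and BMP5 (0.205). CCL2 is itself 1 of the 8 genes behind that median, so its nearness is partly built in. The distance is a description over 4 values that share libraries.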

How the data were processed

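The values were the authors' own comparisons of 2 groups of 4 libraries each, made with DESeq2, per the file headers and the submitters' processing notes. For the authors' processing, these notes name bcl2fastq 2.19.1.403, Trimmomatic 0.39, cutadapt 2.10, FastQC 0.11.9, SAMtools 1.10, Picard, featureCounts 1.6.5, DESeq2 1.20.0 and build hg38, with no role or order. The aligner and the annotation were not given in the sources used here. Libraries came from a stranded mRNA kit, per the labels. The base mean is a signal, the mean normalised read count of both groups as the authors computed it. The log2 fold changes and standard errors were used as deposited, and whether they had been shrunken was not stated. The Wald statistic, a deposited score, served for checks and for the alternative with a robust SD. The deposited p-value was adjusted by the authors over the genes of each table, which was checked. Depth per library is unknown. The base means of a table summed to between 2.79464e+07 and 3.53111e+07, and the lowest was 2.46 to 6.82.

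The members and gene lists were chosen with earlier results of these data known. The threshold for a call was an adjusted p under 0.05. The difference of the responses was the siRFX7 minus the siControl log2 fold change, with the root of the summed squared standard errors, a two-sided normal p and Benjamini-Hochberg adjustment over 21339 genes. Its calculation was run on fold changes simulated with the deposited standard errors, which cannot show whether those errors hold for these data. From the lists, genes could be named that were called in at least 3 of 4 tables and whose base mean reached 100 in each. Up to 6 per list qualified, by largest absolute log2 fold change, and other names are marked. NFKBIZ, BCL3, CYLD, TRAF2, TRAF3, IRAK1, TYK2, FOSL1 and JUN also qualified, but their values are not described here. Group levels were rebuilt from base mean and fold change. Tables were scaled on 12747 genes, after which both tables of a group gave levels within a ratio of 1.01432. Positions and 3′ UTRs came from GENCODE 29 and promoters from RefSeq (GRCh38.p14). Calculations used Python 3.11.15, numpy 2.4.6, pandas 2.3.3, scipy 1.17.1 and matplotlib 3.10.9. Alternatives covered the size of change, threshold, base mean filter, genes adjusted over, spread of the statistic, adjustment and pair of tables.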

Additional observations from a re-analysis of the deposited data

Results flagged for a closer look

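These genes were picked out because their Nutlin-3a responses differed between siRFX7 and siControl by the direct test (difference on the log2 scale, siRFX7 minus siControl, two-sided normal test, Benjamini-Hochberg over 21339 genes). They are genes named or listed for this report that passed this test. Of them, NFKBIA, TNFAIP3 and TNIP1 were named only after their values were seen. The test called 0.764% of all genes lower and 0.173% higher, so lower calls were the more frequent among all genes too. Among the ligands the values were -1.08 ± 0.24 (SE) for CCL20, -0.83 ± 0.19 for LTB, -0.75 ± 0.16 for CXCL8 and -0.64 ± 0.10 for CCL2.

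Among NF-κB genes they were -0.45 ± 0.08 for TRAF1 (adjusted p 2.19e-05), -0.42 ± 0.08 for TNFAIP3 (2.61e-05), -0.33 ± 0.09 for BIRC3 (0.0175), -0.32 ± 0.07 for NFKBIA (0.000924), -0.24 ± 0.06 for NFKB1 (0.0221) and -0.23 ± 0.05 for TNIP1 (0.000551). The AP-1 gene JUNB gave -0.55 ± 0.09 (adjusted p 6.52e-07).

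Of the genes nearest to CXCL8 in pattern, CKS2 gave -0.53 ± 0.08 (adjusted p 1.55e-08), PLK1 -0.35 ± 0.06 (7.05e-06), CDCA8 -0.33 ± 0.07 (0.000176) and CDCA5 -0.28 ± 0.06 (0.000832). HMX2, the nearest of all, gave -0.47 ± 0.18 and did not pass (adjusted p 0.343). These genes were chosen for likeness over the same fold changes. The mesenchymal marker CDH2, encoding N-cadherin, gave -0.24 ± 0.05 (adjusted p 0.00301). CDKN1A, a p53 target used to fix the direction of the tables, gave -0.26 ± 0.05 (adjusted p 0.000305). No test asked what these differences share.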

How the results depend on the processing

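No paired analysis was possible because the tables hold no value of a single library, and for the same reason no library could be left out. The alternatives on size, threshold, filter and adjustment reuse the same fold changes, so they bear on the calls and not on the direction. Requiring a size of at least 1 on the log2 scale left 1 of 4 genes called for Nutlin-3a in siControl, 0 of 4 for siRFX7 under DMSO, 0 of 7 for siRFX7 under Nutlin-3a and 1 of 4 for the difference of the responses. Dividing the statistic by its robust SD left 1 of 4 in siControl, 3 of 6 in siRFX7, 0 of 4 under DMSO and 0 of 7 under Nutlin-3a. That SD is taken over all genes, called ones included. In the difference, it left all 4. An adjusted p under 0.01 left 2 of 4 under DMSO and 4 of 7 under Nutlin-3a. Bonferroni adjustment left 1 of 4 under DMSO, 1 of 7 under Nutlin-3a and 1 of 4 in the difference. For the NF-κB list, whose alternatives were chosen after seeing the data, a size of at least 1 left 0 of 6 and Bonferroni 3 of 6. The difference taken from the siRFX7 tables equals the other by construction, apart from its standard errors, and is no separate check. Of 32 rebuilt levels, 16 moved when taken unscaled from the other table. IL6 and CXCL3, with base means under 100, had the widest errors.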

Other observations

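Several cytokine genes outside the 10 had large values, and all genes named here were chosen after their values were seen. TNFSF4, the ligand OX40L, rose with Nutlin-3a by 3.42 ± 0.29 (SE) in siControl cells and by 2.77 ± 0.31 in siRFX7 cells on the log2 scale, per the authors' deposited tables. Its base mean was 52.6 in the first table. CSF1, which supports macrophages, rose by 0.94 ± 0.06 and 0.81 ± 0.05 per the authors' deposited tables. CXCR2, a receptor of CXCL8, rose by 3.10 ± 0.37 and 3.10 ± 0.40, at a base mean of 28.4 in siControl cells, per the authors' deposited tables.

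TNF, an inducer of NF-κB, had the pattern of values -0.59 ± 0.18 (SE) and -1.36 ± 0.19 for Nutlin-3a in siControl and siRFX7 cells per the authors' deposited tables. With siRFX7 it was higher under DMSO, at 0.73 ± 0.15, and had -0.05 ± 0.23 under Nutlin-3a, per the authors' deposited tables. The difference of its responses, -0.77 ± 0.27, did not pass the adjusted test (adjusted p 0.206).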
